A study of Mus musculus with 3 samples.

Results

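The chromatin around Fezf2, Bcl11b and Sox5, which encode transcription factors that specify subcerebral projection neurons, was described from ATAC-seq peak lists of sorted mouse cortical neurons. In ATAC-seq a transposase cuts and tags accessible DNA, and stretches with many cuts are called as peaks. Members were all peaks in the mm10 body of each gene plus 100 kb on each side, a flank chosen to reach distal enhancers. The 3 windows held 71 of the 98067 peaks of the corticospinal motor neuron (CSMN) library, 143 of the 134018 peaks of the first callosal projection neuron library (CPN 1) and 171 of the 158779 peaks of the second (CPN 2). Peaks that overlapped by at least 1 bp were merged, which gave 223 regions of 204313 in all, 22 at Fezf2, 58 at Bcl11b and 143 at Sox5. CSMN, which project to the spinal cord, were represented by 1 library, and CPN, which connect the hemispheres, by 2 libraries. Each library came from brain and from 50000 sorted cells, with no treatment or genotype on the labels. The labels state no sorting markers, strain or age. With 1 CSMN library there was no replicate of that cell type, so no test between the cell types was made, and spread between replicates could be seen in CPN alone.

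Fezf2 encodes a zinc finger transcription factor of layer 5 neurons that is required for the corticospinal tract to form, and in mouse its cortical expression is known to depend on conserved enhancers near the gene. Bcl11b encodes CTIP2, a zinc finger protein that acts downstream of FEZF2 in the outgrowth and fasciculation of corticospinal axons. Sox5 encodes an SoxD factor that controls the timing with which deep-layer neuron classes are generated and restrains Fezf2 in subplate and corticothalamic neurons. Accessibility marks DNA that proteins can reach, and an accessible promoter or enhancer does not by itself show that a gene is transcribed.

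The RefSeq promoter windows of the members (GRCm38.p6, 250 bases before to 50 after a start site, all on the minus strand) are shown because they fall differently against the peaks. The window of Fezf2, chr14:12345816-12346115, lay inside a region with a peak in every library. The window of Bcl11b, chr12:108003365-108003664, held no peak, and the nearest region began 151 bp away. The window of Sox5, chr6:143947057-143947356, belonged to a start site deep inside the gene, 835181 bp from its 5′ end, and the nearest region lay 5362 bp away. Of the 32851 promoter windows in the RefSeq table, 45.6% overlapped a peak in all 3 libraries and 45.9% overlapped none. Capitals mark the motifs that were found.
Fezf2: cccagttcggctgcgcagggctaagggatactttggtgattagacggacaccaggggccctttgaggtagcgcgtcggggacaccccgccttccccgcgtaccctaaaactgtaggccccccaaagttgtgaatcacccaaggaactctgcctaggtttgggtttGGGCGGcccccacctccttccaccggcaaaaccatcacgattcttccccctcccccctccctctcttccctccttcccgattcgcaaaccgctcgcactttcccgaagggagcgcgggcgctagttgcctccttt
Bcl11b: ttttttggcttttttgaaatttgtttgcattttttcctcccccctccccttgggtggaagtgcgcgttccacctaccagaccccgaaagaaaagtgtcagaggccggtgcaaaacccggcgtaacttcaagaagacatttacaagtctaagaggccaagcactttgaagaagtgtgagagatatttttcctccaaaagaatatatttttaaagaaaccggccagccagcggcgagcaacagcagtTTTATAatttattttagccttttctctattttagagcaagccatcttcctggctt
Sox5: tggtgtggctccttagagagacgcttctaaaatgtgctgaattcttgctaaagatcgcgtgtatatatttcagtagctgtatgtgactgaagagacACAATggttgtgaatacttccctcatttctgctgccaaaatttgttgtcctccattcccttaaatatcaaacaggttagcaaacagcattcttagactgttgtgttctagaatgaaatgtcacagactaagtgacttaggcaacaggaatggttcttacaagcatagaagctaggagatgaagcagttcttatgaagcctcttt
The letters searched on both strands were ACAAT for SOX factors, TGACCA for BCL11 factors, GGTGTGA for T-box factors, CAGATG for proneural E-boxes, CCAAT, the GC box GGGCGG and the TATA box TATAAA. The Fezf2 window held 1 GC box, found in 35.7% of all windows. The Bcl11b window held 1 TATA box, read on the opposite strand and found in 13.6% of all windows. The Sox5 window held 1 SOX match, found in 31.0% of all windows. A match is a description of these letters only. The Fezf2 window was 61.3% G and C, against 43.0% at Bcl11b, 39.7% at Sox5 and a median of 52.7% over all windows.

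At Fezf2 (chromosome 14, 12338992 to 12346803), both the 5′ end and a region just beyond the 3′ end were accessible in CSMN and in both CPN libraries. The region over the 5′ end and the promoter spanned 12344608 to 12346993. Its strongest peak had a fold of 2.97 in CSMN, 3.54 in CPN 1 and 3.35 in CPN 2, where fold is the enrichment over background that the authors' peak caller gave at the summit, within that library. This region was called as 2 peaks in CSMN, 1 in CPN 1 and 2 in CPN 2. The summit near the promoter lay at 12346160 in CSMN, 12346195 in CPN 1 and 12346209 in CPN 2, within 49 bp of each other. The fold there was low beside its significance: the −log10 q was 9.22 in CSMN, 21.7 in CPN 1 and 14.6 in CPN 2, against a median of 6.38, 7.65 and 5.09 among peaks of the same list within 0.1 of that fold.

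The second constant region at Fezf2, at 12337494 to 12338697, had a summit 7701 bp downstream of the promoter table's start site in CSMN, 7623 bp in CPN 1 and 7607 bp in CPN 2. It had a fold of 4.30 in CSMN, 5.99 in CPN 1 and 6.68 in CPN 2, above the promoter in each library. Its width was 1151 bp in CSMN, 1137 bp in CPN 1 and 1200 bp in CPN 2. Whether it matches a known Fezf2 enhancer was not tested. Inside the gene, CSMN had no peak beyond the promoter region, while CPN 1 had a weak peak at 12343515 to 12343758 (fold 2.0) and CPN 2 another at 12341510 to 12341622 (fold 2.28). These CPN peaks did not overlap, so neither was shared between the CPN libraries.

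**Figure D1:**
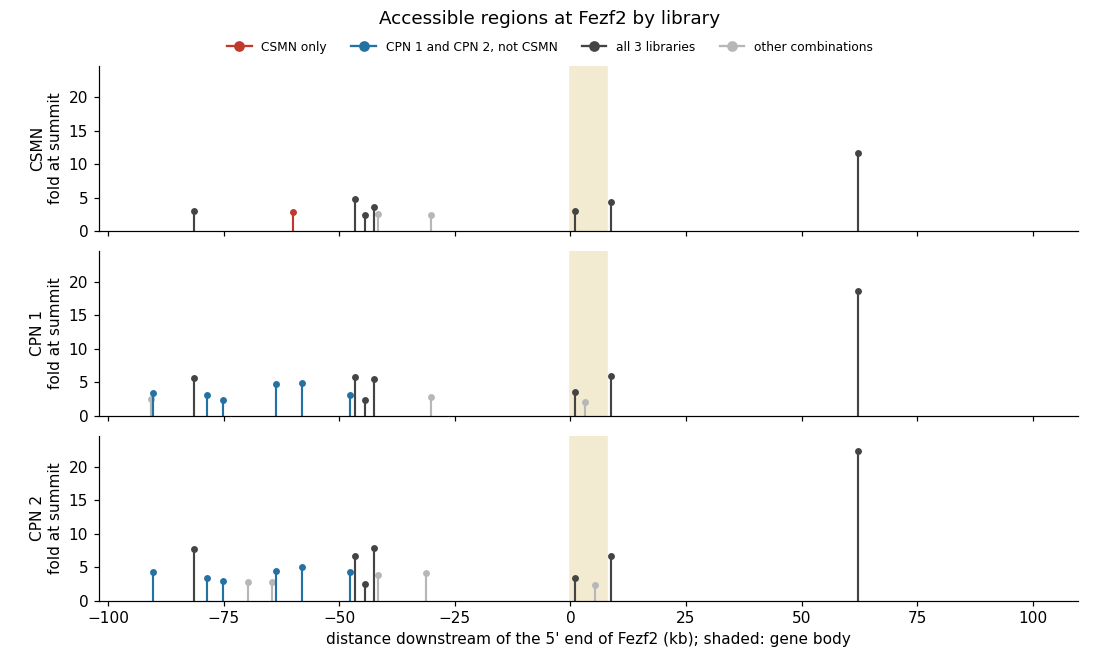
Fold at the summit (y axis, authors' enrichment) of each region within 100 kb of Fezf2 against its distance from the 5′ end in kb (x axis, downstream to the right), with CSMN above CPN 1 and CPN 2; colour gives the libraries with a peak. The promoter region and the region 8.71 kb from the 5′ end stood in every library, and 17 of the 22 regions lay upstream.

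The regions around Fezf2 were unevenly placed. The upstream flank held 17 regions and the downstream flank 2, and a stretch of 52.5 kb downstream of the gene held no peak in any library. All 17 upstream regions lay inside Cadps, which encodes a protein that primes secretory vesicles and whose body reaches into that flank. They therefore cannot be assigned to Fezf2 by position. The strongest region of the window, at 12284008 to 12285004, covered the start of the neighboring gene 3830406C13Rik, with a fold of 11.7 in CSMN, 18.6 in CPN 1 and 22.4 in CPN 2. Inside Cadps, the region at 12393109 to 12393919, 46.7 kb upstream of Fezf2, was found in all libraries with a fold of 4.80 in CSMN, 5.85 in CPN 1 and 6.60 in CPN 2. A region closer to Fezf2, at 12389065 to 12389463, had a fold of 3.54 in CSMN, 5.56 in CPN 1 and 7.82 in CPN 2. A further region of all libraries, at 12428021 to 12428624, had a fold of 2.95, 5.66 and 7.67.

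One region near Fezf2 was found only in CSMN (CSMN-only: called in CSMN and in no CPN library). It lay in Cadps at 12406647 to 12406820, 59.9 kb upstream of Fezf2, and was weak, with a fold of 2.86 and a −log10 q of 5.38. There were 6 CPN-only regions (called in both CPN libraries, not in CSMN), and all of them lay in Cadps. The strongest were at 12404835 to 12405058, where the CPN 1 fold was 4.86 and the CPN 2 fold 4.97, at 12410413 to 12410749, with 4.74 and 4.38, and at 12436785 to 12437321, with 3.47 and 4.24. The first and second of these stood on either side of the CSMN-only region. Without CPN 1 the CPN-only regions at Fezf2 numbered 10, and without either CPN library the CSMN-only regions numbered 2.

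At Bcl11b (chromosome 12, 107910403 to 108004145), the strongest region of each library stood at or just upstream of the 5′ end and was common to the cell types. The region over the 5′ end, at 108003816 to 108004312, had a fold of 7.16 in CSMN, 9.35 in CPN 1 and 8.47 in CPN 2. A region 2.19 kb upstream, at 108006013 to 108006651, had a fold of 6.27 in CSMN, 12.1 in CPN 1 and 11.3 in CPN 2. The 5′ end was thus the strongest peak of the window in CSMN, whereas the upstream region was the strongest in both CPN libraries.

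The body of Bcl11b held 8 regions found in all libraries. One of them, at 107998842 to 107999126, 5.16 kb into the gene, had a fold of 3.68 in CSMN, 6.25 in CPN 1 and 9.07 in CPN 2, above the 5′ end in CPN 2 and below it in CSMN and CPN 1. Another, at 107952319 to 107952685, had a fold of 3.71, 5.69 and 7.64. The regions at 107928075 to 107928803 and 107969816 to 107970234 had a CSMN fold of 3.60 and 2.96. Their folds in CPN 1 and CPN 2 ranged from 4.49 to 5.17. Folds of different libraries are not on a common scale, and by rank the first of these regions stood higher in CSMN (below). With exons and introns not distinguished in the gene table, these positions are given only as within the body.

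Bcl11b had 2 CSMN-only regions, both within the gene and both near the threshold of the list. The region at 107915445 to 107915599 had a fold of 2.17 and a −log10 q of 1.99, and the region at 107989753 to 107989931 had a fold of 2.0 and a −log10 q of 1.32. The lowest −log10 q in the CSMN list was 1.30. Over the genome the median fold was 2.34 in CSMN-only regions, and in CPN-only regions 3.47 in CPN 1 and 3.65 in CPN 2. These folds come from different lists and are not on a common scale. The 14 CPN-only regions at Bcl11b had folds of 2.31 to 4.55 in CPN 1 and 2.63 to 5.10 in CPN 2. Among them, 107931021 to 107931371 in the gene had a fold of 3.94 and 5.10, 107874530 to 107875082 beyond the 3′ end had 4.55 and 4.58, and 108049681 to 108050180 upstream had 3.80 and 3.92. By position, 7 of the 14 lay in the downstream flank, 3 in the body and 4 in the upstream flank. Without CPN 1, 31 regions at Bcl11b were in CPN 2 and not in CSMN, and without CPN 2, 27 were in CPN 1 and not in CSMN.

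**Figure D2:**
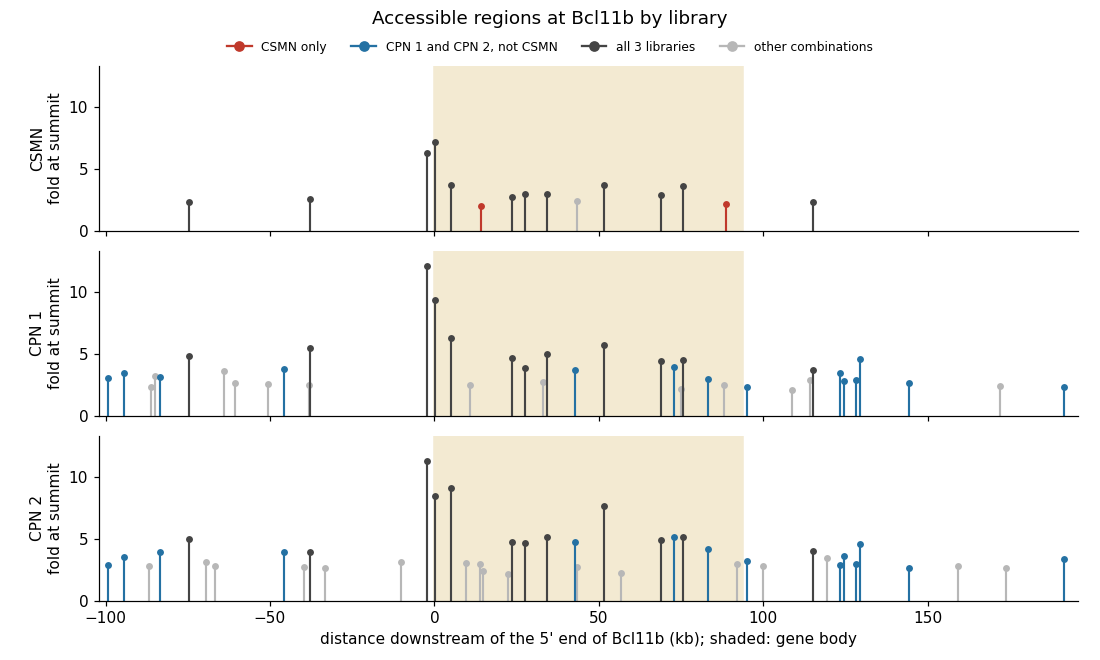
Fold at the summit (y axis) of each region within 100 kb of Bcl11b against its distance from the 5′ end in kb (x axis, downstream to the right), with CSMN above CPN 1 and CPN 2. The tallest peak stood at the 5′ end in CSMN (7.16) and 2.19 kb upstream in CPN 1 (12.1) and CPN 2 (11.3), and regions in other combinations, mostly of a single CPN library, filled the flanks.

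CSMN regions were fewer than CPN regions at each member. At Bcl11b CSMN had 15 regions, against 39 in CPN 1 and 43 in CPN 2, a ratio of 0.366 to the CPN mean. Of the 20120 windows of protein-coding genes with a CPN region, 6.1% had a lower ratio, and the median was 0.667. The windows of neighboring genes overlap and are not independent. With each list held to its 98067 strongest peaks by −log10 p, the ratio was 0.612 and 8.15% of windows were lower. With a flank of 10 kb it was 0.632 and 39.8% of windows were lower, so its place among the windows depended on the flank. At Sox5 the ratio was 0.436, with 12.2% of windows lower, and at Fezf2 it was 0.588, with 35.7% lower. With equal lists these were 0.781 (25.9%) and 0.769 (23.8%). The order of the members was not fixed: among peaks of −log10 q of at least 5 the ratio was 0.291 at Sox5 and 0.36 at Bcl11b, with 5.69% and 11.1% of windows lower, and with a flank of 10 kb it was 0.451 at Sox5, below Bcl11b.

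At Sox5 (chromosome 6, 143828425 to 144782287), accessibility was spread through the long gene rather than held at its 5′ end. The region over the 5′ end, at 144781411 to 144783224, had a fold of 4.15 in CSMN, 8.02 in CPN 1 and 7.46 in CPN 2. The strongest region of the window lay 725 kb into the gene, at 144056344 to 144057613, with a fold of 6.12 in CSMN, 12.4 in CPN 1 and 13.9 in CPN 2. A region 32.8 kb upstream, at 144814878 to 144815323, was also above the 5′ end, with a fold of 5.73 in CSMN, 9.47 in CPN 1 and 8.91 in CPN 2.

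Other strong regions of Sox5 stood between 573 and 737 kb from its 5′ end. The region at 144154738 to 144155448 had a fold of 4.61 in CSMN, 7.68 in CPN 1 and 8.61 in CPN 2, and that at 144045452 to 144045966 had 4.25, 8.60 and 9.51. The regions at 144204036 to 144204552 and 144208948 to 144209790 had a CSMN fold of 4.6 and 4.32, a CPN 1 fold of 6.97 and 7.59 and a CPN 2 fold of 10.2 and 11.0. Nearer the 5′ end, 144611357 to 144611857 had a fold of 5.47 in CSMN, 7.52 in CPN 1 and 5.99 in CPN 2. Of the 129 regions in the body, 17 lay in the first of 4 equal stretches from the 5′ end, followed by 35, 41 and 36 in the others. The downstream flank of 100 kb held no region in any library.

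At Sox5, 11 regions were CSMN-only and 28 were CPN-only, and their folds, taken from different lists, are not on a common scale. The CSMN-only folds ran from 2.26 to 2.69, with none at a −log10 q of 5. The highest was at 144454368 to 144454647 (fold 2.69), followed by 144396986 to 144397319 in the gene and 144802779 to 144802919 upstream, inside the long non-coding RNA gene Gm32069 (2.43 each). The CPN-only folds ran from 2.31 to 5.89 in CPN 1 and from 2.65 to 6.87 in CPN 2. The strongest was at 144098194 to 144098493, with 5.55 in CPN 1 and 6.87 in CPN 2, followed by 144343477 to 144343698, with 5.09 and 5.99, and 144181164 to 144181754, with 5.89 and 4.97. A peak of CPN 2 alone, at 144339121 to 144339265, reached a fold of 8.91 and a −log10 q of 36.7 with no peak in CPN 1, which shows how far replicates could differ at a single site; it was singled out after its value was seen. CPN-only regions at Sox5 numbered 73 without CPN 1 and 58 without CPN 2.

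**Figure D3:**
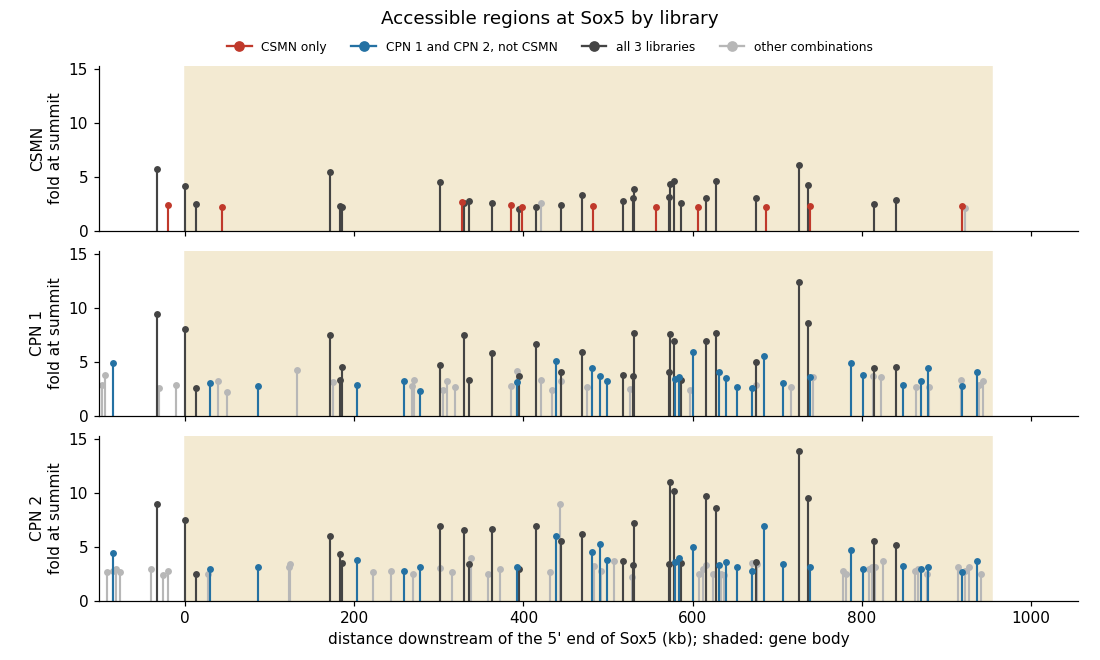
Fold at the summit (y axis) of each region within 100 kb of Sox5 against its distance from the 5′ end in kb (x axis, downstream to the right), with CSMN above CPN 1 and CPN 2. Regions were spread along the body, the highest at 725 kb in each library, and the downstream flank was empty.

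The classes at the members were set beside those of the whole genome. CSMN-only regions made up 4.55% of the regions at Fezf2, 3.45% at Bcl11b and 7.69% at Sox5, against 11.8% of all merged regions. Set beside the windows of protein-coding genes, whose median share was 7.14%, Sox5 stood near the middle, with 52.9% of windows lower, and Fezf2 and Bcl11b had 34.0% and 27.1% of windows lower. The Wilson 95% intervals, which cover counting error only, ran from 0.807 to 21.8%, from 0.951 to 11.7% and from 4.35 to 13.2%. CPN-only regions made up 27.3%, 24.1% and 19.6% at these genes, against 19.4% of all regions, which lay inside each interval. The median over gene windows was 16.7%, and 85.1%, 76.7% and 61.5% of windows had a lower share. Regions found in all libraries made up 31.8% at Fezf2, near the 30.6% of all regions, and 20.7% at Bcl11b and 19.6% at Sox5. The intervals ran from 16.4 to 52.7%, from 12.3 to 32.8% and from 13.9 to 26.8%, so the last left out the genome value. The median over gene windows was 34.5%, with 42.0%, 15.6% and 13.8% of windows lower. Regions of CPN 1 alone numbered 2, 13 and 30 at these genes (9.09%, 22.4% and 21.0%), against 12.9% of all regions. For this class 42.0%, 92.3% and 89.8% of gene windows had a lower share. Regions of CPN 2 alone numbered 4, 16 and 44 (18.2%, 27.6% and 30.8%), against 20.9%, with 42.6%, 75.8% and 83.4% of windows lower. CSMN shared 1, 0 and 1 region with CPN 1 alone (4.55%, 0% and 0.699%), against 2.11%. With CPN 2 alone it shared 1 at each gene (4.55%, 1.72% and 0.699%), against 2.37%.

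**Figure D4:**
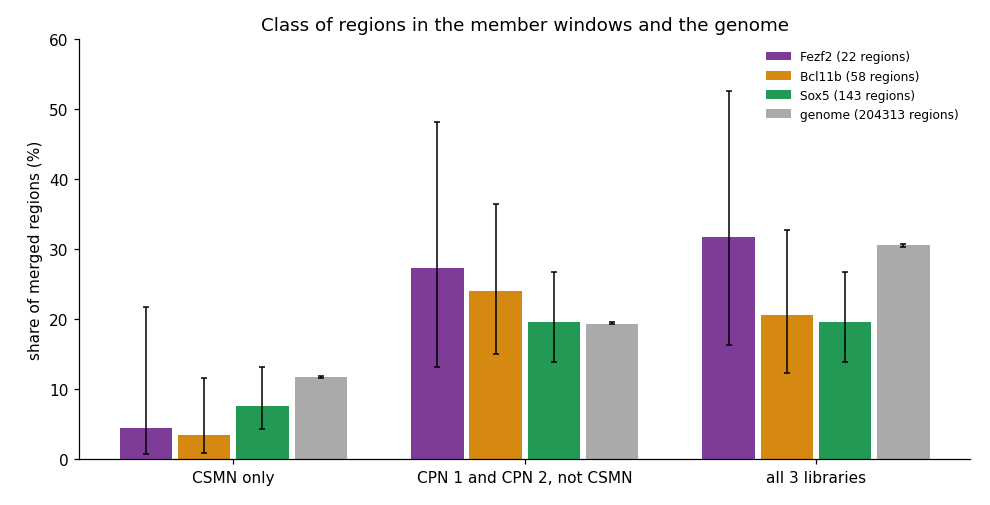
Share of merged regions (y axis, percent) found only in CSMN, only in both CPN libraries or in all 3 libraries, for the Fezf2, Bcl11b and Sox5 windows and the genome; error bars are Wilson 95% intervals. The CSMN-only share was 3.45 to 7.69% at the members and 11.8% in the genome. The intervals cover counting error only, include the genome value at Fezf2 and Sox5 and end at 11.7% at Bcl11b. The median over protein-coding gene windows, not drawn, was 7.14%, and 27.1% of windows had a lower share than Bcl11b.

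The strength of the peaks moved with these classes. Of the 14 CSMN-only regions, 1 (7.14%) reached a −log10 q of 5, against 14.4% of CSMN-only regions over the genome. Of the 48 CPN-only regions, 35 (72.9%) did so in CPN 1 and 30 (62.5%) in CPN 2. Over the genome these shares of CPN-only regions were 73.2% and 70.9%, so the contrast between the classes was also present there. In the whole lists, 55.2% of CSMN peaks reached this level, against 72.4% in CPN 1 and 65.4% in CPN 2, and its part in the class counts was not tested. When peaks below that level were left out of every list, CSMN-only regions numbered 2 at Fezf2, 0 at Bcl11b and 0 at Sox5, against 4.05% of all regions of such peaks. Of the 2 at Fezf2, 1 had a peak in every full list, at 12391247 to 12391436, where the −log10 q was 5.19 in CSMN, 4.90 in CPN 1 and 4.51 in CPN 2. CPN-only regions then numbered 5, 11 and 24, against 29.5%, and regions of all libraries 6, 9 and 16, against 38.1%. With equal list lengths the CSMN-only, CPN-only and all-library counts were 2, 5 and 6 at Fezf2, 3, 8 and 12 at Bcl11b and 13, 14 and 25 at Sox5, against 22.2%, 16% and 39.1% of all regions.

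Most CSMN regions at the members had a CPN counterpart, but not the reverse. Of 66 CSMN regions in the 3 windows, 74.2% were found in CPN 1 and 75.8% in CPN 2, against 69.8% and 70.4% over the genome. Of 142 CPN 1 regions, 34.5% were found in CSMN and 66.9% in CPN 2, against 50.3% and 77.0% over the genome. Of 162 CPN 2 regions, 30.9% were found in CSMN and 58.6% in CPN 1, against 44.9% and 68.2%. Over the pooled windows, the shares of CPN regions found in CSMN and in the other CPN library were thus below the genome. Fezf2 taken alone differed, with 50% of CPN 1 regions and 44.4% of CPN 2 regions found in CSMN, near the genome, and 81.2% of CPN 1 regions found in CPN 2, above it.

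Because folds of different libraries are not on a common scale, the 47 member regions found in all libraries were ranked by fold among the 62435 such regions, separately in each library. The 5′ end of Fezf2 stood at percentile 33.5 in CSMN, 15.0 in CPN 1 and 9.80 in CPN 2. The 5′ end of Bcl11b stood at 82.6 in CSMN, 71.5 in CPN 1 and 65.1 in CPN 2. The 5′ end of Sox5 stood at 59.2 in CSMN, 63.9 in CPN 1 and 58.6 in CPN 2. Fezf2 and Bcl11b thus ranked at least 10 points higher in CSMN than in both CPN libraries, whereas Sox5 did not. That gap was shown by 18.4% of the 62435 regions and by 10.1% of the 12017 that overlap a promoter window. The median percentile of those 12017 was 84.3 in CSMN, 84.2 in CPN 1 and 83.5 in CPN 2, far above the Fezf2 region. Any effect of such high ranks on the share with the gap was not tested. The 5′ regions of Bcl11b and Sox5 lay outside their own promoter windows. A gap of at least 10 points in the other direction was shown by 6.62% of the promoter regions and by 18% of the 62435. When ranked by −log10 p, the 5′ end of Fezf2 stood at 44.7, 38.6 and 32.0 and that of Bcl11b at 85.2, 82.5 and 79.6, so the order held but the gap to CPN 1 was under 10 points at both genes. On that scale 7.09% of promoter regions stood at least 10 points higher in CSMN and 6.92% lower.

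Over all member regions, the 5′ ends included, ranks moved both ways. At least 10 points higher in CSMN than in both CPN libraries stood 3 of 7 regions at Fezf2, 2 of 12 at Bcl11b and 6 of 28 at Sox5, and at least 10 points lower stood 1, 1 and 6, against 18.4% and 18% of all such regions. Over the members together these were 11 and 8 of 47. With a gap of 20 points none stood higher at any member, while 1 region at Bcl11b and 4 at Sox5 stood lower. When ranked by −log10 p with a gap of 10 points, 1, 0 and 5 stood higher and 1, 3 and 5 lower, against 18.4% and 17.9% of all such regions. At Fezf2, the region 46.7 kb upstream in Cadps stood at percentile 67.3 in CSMN, 45.5 in CPN 1 and 51.5 in CPN 2. The region downstream of the Fezf2 gene stood at 61.5 in CSMN, 46.9 in CPN 1 and 52.0 in CPN 2 by fold, but at 69.7, 71.7 and 73.9 by −log10 p, so its order turned. Ranks by fold and by −log10 p therefore give no single answer for that region. At Bcl11b, the region at 107928075 to 107928803 stood at 49.9 in CSMN, 28.6 in CPN 1 and 36.1 in CPN 2 by fold. By −log10 p it stood at 50.5, 42.9 and 47.8.

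By the smaller of the gaps to CPN 1 and CPN 2, the 3 widest among the 47 regions were at Sox5, in regions singled out after their ranks were seen. The region at 144367030 to 144368168, 415 kb into the gene, had a fold of 2.26 in CSMN, 6.61 in CPN 1 and 6.87 in CPN 2, and stood at percentile 5.10, 53.1 and 53.6. The others lay closer to the 5′ end, at 144418815 to 144419759 and 144452239 to 144453416, and had a CSMN fold of 2.60 each. Their folds were 5.83 and 7.45 in CPN 1 and 6.65 and 6.52 in CPN 2. Their percentiles were 18.9 each in CSMN, 45.3 and 59.9 in CPN 1 and 51.7 and 50.6 in CPN 2. In all 3 regions CPN 1 and CPN 2 lay within 10 points of each other. The gap therefore exceeded the spread between the CPN libraries, in regions picked for a wide gap and with no replicate of CSMN to set beside it. The CSMN −log10 q was low in them, at 2.35, 3.99 and 3.99. At 144452239 to 144453416 CSMN was called as 3 peaks. The ranked CSMN peak there had its summit at 144452373, against 144452878 in CPN 1 and 144452872 in CPN 2, so different summits were compared. At 144418815 to 144419759 the summits also differed, at 144419131 in CSMN, 144419375 in CPN 1 and 144419382 in CPN 2. Other regions of all libraries lay between these 3 and did not share the gap. The one at 144387666 to 144388199 stood at 1.07 in CSMN, 17.5 in CPN 1 and 4.63 in CPN 2. The one at 144446071 to 144446336 stood higher in CSMN, at 26.0, 12.3 and 10.4. Also in that direction, 144611357 to 144611857 stood at 73.1 in CSMN, 60.4 in CPN 1 and 45.5 in CPN 2.

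**Figure D5:**
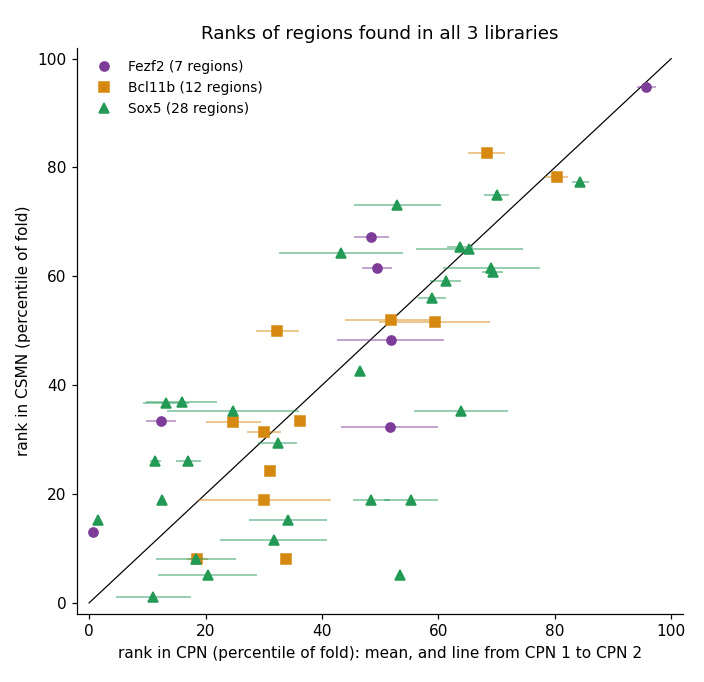
Percentile of fold among regions of all libraries in CSMN (y axis) against the mean percentile of CPN 1 and CPN 2 (x axis), with a line from one CPN library to the other, for 7 Fezf2, 12 Bcl11b and 28 Sox5 regions. Points fall on both sides of the diagonal, and the Sox5 region at 5.10 in CSMN lies farthest below it.

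The order of folds over the pooled member regions was more alike between the CPN libraries than between CSMN and either, which held at Sox5 and not at Fezf2 or Bcl11b. Spearman's rho over the 47 regions was 0.72 for CSMN with CPN 1, 0.694 for CSMN with CPN 2 and 0.886 for the CPN pair, against 0.813, 0.8 and 0.946 over the genome. At Sox5 the values were 0.705, 0.642 and 0.869 over 28 regions. At Fezf2 they were 0.857, 0.571 and 0.679 over 7 regions, and at Bcl11b 0.697, 0.841 and 0.762 over 12. These values describe regions of 3 libraries, which are not independent replicates. Summits of CSMN and CPN 1 lay a median of 55.0 bp apart, those of CSMN and CPN 2 also 55.0 bp, and those of the CPN pair 25 bp. Over the genome these medians were 35, 38 and 23 bp, so the CPN pair was also closest there.

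The paralogs and other genes of deep-layer specification were counted in the same way. Among the paralogs, Fezf1, a close relative of Fezf2 known from the hypothalamus and olfactory system, had 12 CSMN-only and 1 CPN-only region of 25, and 7 and 0 among peaks of −log10 q of at least 5. Bcl11a, which encodes CTIP1, had 12 of each, but 3 CSMN-only and 6 CPN-only among the stronger peaks and 19 and 4 with equal list lengths. The SoxD genes Sox6 and Sox13 had 2 CSMN-only regions each, with 26 and 7 CPN-only. Of 19 network genes, 17 had more CPN-only regions, 1 had equal numbers and Otx1 had more CSMN-only regions, with 5 against 2, with 1 against 2 among the stronger peaks and 7 against 1 with equal list lengths. Over all protein-coding genes with a region, 67.3% had more CPN-only regions. Among the stronger peaks all 19 network genes had more CPN-only regions, against 82.7% of all genes. With equal list lengths 10 had more CPN-only regions, 7 more CSMN-only regions and 2 equal numbers, against 39.7% of all genes with more CPN-only regions, so these counts depended on the length of the lists. The median CSMN-only share in the network genes was 9.09%, with a range of 0 to 20%, and the median over all genes was 7.14%. Sox4 and Sox11, whose products are known in mouse to activate Fezf2 in opposition to SOX5, had 0 and 1 CSMN-only and 6 CPN-only regions each.

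Peaks within 1 kb of either end of marker genes were used to check the labels. All 6 CSMN markers (Fezf2, Bcl11b, Crym, Pcp4, Crim1 and Ldb2) had such a peak in CSMN, CPN 1 and CPN 2, so these markers did not separate the labels. The 4 CPN markers Cux1, Cux2, Lpl and Lmo4 also had one in every library. The neuronal gene Rbfox3 lacked a peak in CSMN and Slc17a7 lacked one in CPN 1. Markers of other cells also had peaks, with 4 of 4 interneuron, 3 of 4 astrocyte, 2 of 5 oligodendrocyte lineage, 1 of 3 microglial and 3 of 3 endothelial genes in CSMN. In CPN 1 and CPN 2 the astrocyte genes numbered 3 and 4, the oligodendrocyte lineage genes 3 each and the microglial genes 2 and 1, with interneuron and endothelial genes as in CSMN. The summed fold was lower in CSMN for each of the 8 marker lists, the neuronal ones included. Folds of different libraries are not on a common scale. The median fold of the whole list was also lower in CSMN, at 2.86 against 3.82 in CPN 1 and 3.68 in CPN 2. The part of other cells in the member regions was not tested. Of the oligodendrocyte lineage and microglial genes, Sox10, Mog and C1qa had no peak in any library, while Olig1, Olig2 and P2ry12 had one in every library. Pdgfra had one in both CPN libraries and Cx3cr1 in CPN 1 alone.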

How the data were processed

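The peak lists of 1 CSMN and 2 CPN libraries were used as deposited by the authors. Build mm10 is listed in the submitters' processing notes, with bedtools 2.29.2, BWA 0.7.17 and MACS2 2.2.7.1, per those notes without roles. For read filters, duplicates, the transposase shift and read depth, nothing is given in the sources used here. Peak names carry 1 library each, so peaks were taken as called per library. The deposited lists give each peak a fold, which is a ratio at the summit, a −log10 p, a −log10 q, a score and a summit offset. The lists held 98067 peaks over 39.7 Mb in CSMN, 134018 over 54.7 Mb in CPN 1 and 158779 over 47.2 Mb in CPN 2, with a median fold of 2.86, 3.82 and 3.68.

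Peaks overlapping by 1 bp were merged in Python 3.11.15, with a difference of 0 regions from bedtools 2.31.1. Class assignment was also run on simulated sites set far apart, where all peaks of a site shared a position. That run could not show errors from adjacent or chained peaks. Gene bodies came from RefSeq GRCm38.p6 and strands from its promoter table, which matched all 3 members. The members, lists and rules were chosen with earlier results of these data known, and ranks, ratios and their alternatives after seeing the data. Regions named were those over gene starts, within 10 kb of Fezf2, the 5 strongest per cell type and gene, all CSMN-only regions of Fezf2 and Bcl11b and otherwise the 3 strongest of a class, with CPN strength taken as the lower of the 2 CPN folds. No p-value was computed. A gene of the network and marker lists is not reported here.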

Additional observations from a re-analysis of the deposited data

How the results depend on the processing

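Keeping peaks that reached a −log10 q of 5, CSMN-only regions numbered 2 at Fezf2, 0 at Bcl11b and 0 at Sox5, and regions of all libraries at Sox5 numbered 16. With equal list lengths, CSMN-only regions at Fezf2 numbered 2, and CPN-only regions 8 at Bcl11b and 14 at Sox5, against 3 and 13 CSMN-only regions there. That setting trims the CPN lists alone. With a flank of 10 kb, Fezf2 had 0 CSMN-only, 0 CPN-only and 2 regions of all libraries, and Bcl11b had 4 CPN-only regions, from the smaller window. Requiring an overlap of 50% of the shorter peak moved no count by more than 1.5 times. Leaving out CPN replicate 1 or 2 gave 2 CSMN-only regions at Fezf2 either way, 8 to 10 CPN-only regions at Fezf2, 27 to 31 at Bcl11b and 58 to 73 at Sox5, since a class of both libraries then rested on 1. Without a CPN library, CSMN-only regions numbered 2 to 3 at Bcl11b and 12 each way at Sox5, and regions of all libraries 8 each way at Fezf2, 12 to 13 at Bcl11b and 29 to 31 at Sox5. In every one of these settings except the flank of 10 kb at Fezf2, where both were 0, CPN-only regions outnumbered CSMN-only regions at each member. Over the genome they also did so in the full lists, with 19.4% against 11.8% of regions. Among peaks of −log10 q of at least 5 the genome shares were 29.5% and 4.05%. With equal lists they were 16% and 22.2%, the reverse order. For the other settings no genome share of these classes was computed. No paired analysis was possible because the cell types share a single replicate number and no test was made. The absence of a peak means only that the threshold of that list was not reached at its depth, which was not given.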
